A study of Caenorhabditis elegans with 23 samples.

Results

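The F-box A genes of Caenorhabditis elegans were followed in mRNA and small RNA of whole worms. All gene IDs whose symbol begins with fbxa- were taken, which gave 170 of the 46904 IDs in each count table. The symbol fbxa-41 belonged to 2 IDs (WBGene00018684 and WBGene00021987), which were kept apart. The worms came in 4 groups. MY16_Star and MY16 carry the name of the wild isolate MY16, and N2_Star and N2 that of N2, the laboratory strain whose genome is the species' reference. The labels do not explain the word Star and name no other allele, transgene or treatment in any group, so how a Star group was made is not stated here. The series is titled for small RNA that is inherited independently of the nucleus. All worms were adults of day 1, grown at 20 °C on E. coli OP-50. Messenger RNA was counted in 12 libraries, 3 of each group. Small RNA was counted in 11, 3 of each group except N2_Star with 2, although the design text names MY16_Star as the group that lost a library. The replicates are called biological, and nothing states how they were kept apart.

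F-box proteins are the interchangeable substrate receptors of SCF ubiquitin ligases. Their F-box binds a Skp1-like adaptor (an skr protein in the worm), which hangs on a cullin, and the rest of the protein picks the target to be ubiquitinated. In F-box A proteins that part is usually an FTH domain, named for homology with the sex determination protein FOG-2. The family expanded greatly in nematodes, lies largely in arrays of neighbouring copies, and is known as one of the most variable gene families between wild isolates. Most members have no assigned function. Worms also make small RNAs antisense to many genes with RNA-dependent RNA polymerases, and Argonaute proteins loaded with them can silence those genes.

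Of the 170 members, 168 had a position in RefSeq's gene table for WBcel235 (ce11), and coordinates below are from that table. Chromosome V held 71, III 60, II 14, X 12, I 6 and IV 5. With neighbours joined at gaps of up to 10000 bases, 112 of the 168 lay in 28 clusters. The longest held 22 members on chromosome III, from 1239048 to 1324613. Near-identical copies may share reads, so the values of members in such arrays are uncertain to that extent.

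Gene counts per library ran from 9362590 to 23150198 in mRNA and from 1778321 to 19563562 in small RNA. Levels are given as CPM, the share of a library's gene counts that a gene takes, scaled up to a common total after TMM scaling. A gene without a read could have had up to 3 counts, which were worth 0.127 to 0.310 CPM in an mRNA library and 0.134 to 1.95 CPM in a small RNA library, counting error only. The MY16 replicate 1 and N2 replicate 3 small RNA libraries were the shallowest. Markers of intestine, germline, sperm, muscle, neuron, early embryo and hypodermis all had mRNA reads in every group. The early embryo marker end-1 reached at most 0.058 CPM in MY16_Star, less than 3 counts were worth. The reads of both isolates were counted on the N2 genome, so a low count in MY16 cannot be told apart from a gene that is diverged or missing there. In whole worms, fewer cells of a type and less RNA per cell also cannot be told apart.

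F-box A genes gave little mRNA and more small RNA. Summed over the family, mRNA came to 731 to 1029 CPM per library, or 0.0739% to 0.105% of the gene counts, and small RNA to 5284 to 6758 CPM, or 0.525% to 0.634%. Groups compared below (MY16 and N2, MY16_Star and N2_Star, and each Star group and its namesake) overlapped in both sums. In mRNA 14 of 170 members had a mean over all libraries of at least 10 CPM and 1 a mean of at least 100, whereas 12 had no count in any library. In small RNA 41 members reached 10 CPM and 13 reached 100, and 3 had no count (fbxa-18, fbxa-127 and fbxa-147, named after their values were seen).

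The most abundant member in mRNA, per kb of gene span, was fbxa-215 (WBGene00012879, chromosome IV, 13665364 to 13666909) with 136 CPM per kb over all libraries. It stood at 191, 245 and 226 CPM in MY16_Star, 256, 207 and 227 in MY16, 146, 210 and 188 in N2_Star and 203, 227 and 207 in N2, so all 4 groups overlapped. The next members, per kb of span, were fbxa-101 with 45.2, fbxa-206 with 35.7, fbxa-114 with 29.3, fbxa-210 with 28.8 and fbxa-60 with 25.8 CPM per kb. Below them came fbxa-72 with 13.02, fbxa-108 with 12.3, fbxa-107 with 11.6 and fbxa-197 with 11.4 CPM per kb. Span includes introns, so members with long introns are placed too low in this order. The levels of fbxa-72 were uneven within groups, with 5.09, 29.5 and 25.0 CPM in the N2_Star libraries.

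The order of the small RNA levels was another. The highest member was fbxa-67 (chromosome III, 948493 to 950670) with 425 CPM per kb over all libraries. It was at 969 ± 103 CPM in MY16_Star, 983 ± 56.8 in MY16, 914 ± 146 in N2_Star (n = 2) and 834 ± 129 in N2 (SD, n = 3 otherwise), and those groups overlapped. After it came fbxa-120 with 305, fbxa-11 with 277, fbxa-218 with 264, fbxa-60 with 182 and fbxa-10 with 154 CPM per kb. Of these 6 members, 4 (fbxa-60, fbxa-67, fbxa-11 and fbxa-10) are consecutive genes in a cluster of 10 on chromosome III, from 933422 to 963833. The others of the 10 highest were fbxa-184 with 134, fbxa-139 with 112, fbxa-150 with 111 and fbxa-61 with 71.6 CPM per kb. Of all members named for either level, fbxa-60 alone was in both orders.

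Some members with small RNA had mRNA close to the floor. Of the members with a group mean of at least 10 CPM of small RNA, mRNA was under 1 CPM at 10 of 38 in MY16_Star, 9 of 36 in MY16, 13 of 43 in N2_Star and 13 of 41 in N2. It was at least 10 CPM at 9, 11, 12 and 11 of them in the same groups, and between these levels at the rest. One with mRNA under 1 CPM in all groups, fbxa-136, named after its values were seen, had 303, 372 and 387 CPM of small RNA in MY16_Star, 422, 449 and 429 in MY16, 417 and 236 in N2_Star and 311, 297 and 290 in N2. Its mRNA did not exceed 4 counts in any library. The 12 members without an mRNA count included fbxa-112, fbxa-148, fbxa-133 and fbxa-208, whose small RNA differed between the isolates as described below.

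Messenger RNA of MY16 was compared with that of N2 to ask which members differ between the isolates. After the filter on low counts 97 members were tested, and 15 of them, or 15.5%, passed an adjusted p of 0.05 (edgeR's quasi-likelihood test, Benjamini-Hochberg over all 13983 genes tested), against 4.03% of all genes. Of these, 10 were higher in MY16, or 10.3% against 1.72% of all genes, and 5 were lower, or 5.15% against 2.31%. All 15 had libraries that did not overlap between MY16 and N2, as did all 563 genes called. The median log2 fold change of the 97 was 0.16, beside -0.02 over all genes. Sperm markers, summed over 5 genes, were at 8.01 to 29.1 CPM in MY16 and 35.8 to 44.5 CPM in N2, with none at 0, and their part in these differences was not tested.

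The member with the highest fold in MY16 was fbxa-100 (WBGene00008826, chromosome V, 16060526 to 16062093). It was counted at 7.73, 4.33 and 5.90 CPM in MY16 and had no count in any N2 library, at least 32.0-fold higher (adjusted p = 3.51e-05, edgeR). MY16_Star libraries gave 8.38, 8.81 and 6.02 CPM, and N2_Star libraries a single read in all. This mRNA was thus counted in the MY16 and MY16_Star libraries and hardly at all in N2_Star and N2. Its small RNA followed the same pattern, at 4.01, 3.36 and 4.90 CPM in MY16 and 4.18, 2.59 and 2.11 CPM in MY16_Star, with no count in any N2_Star or N2 library, at least 5.44-fold higher in MY16 than in N2 (adjusted p = 1.73e-04, edgeR).

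A lower-level member, fbxa-164 (chromosome II, 1612788 to 1614072), was at 1.71, 1.93 and 1.76 CPM in MY16 and without a count in N2, at least 9.64-fold higher (adjusted p = 0.00886, edgeR). The mRNA of fbxa-176, at 2.96, 3.21 and 2.79 CPM in MY16 and 0.187, 0.0820 and 0.212 CPM in N2, was higher by 4.09 ± 0.605 (log2, SE; adjusted p = 0.00129, edgeR). Neither gene's MY16 libraries overlapped those of N2, although fbxa-164 was also counted in N2_Star, at 0.755, 0.227 and 0 CPM. Next by fold was fbxa-157, an F-box A gene on chromosome V (17899803 to 17901906), at 6.76, 6.11 and 5.38 CPM in MY16 and 1.25, 1.39 and 1.23 CPM in N2. It was higher in MY16 by 2.24 ± 0.283 (log2, SE; adjusted p = 3.90e-04, edgeR).

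Among the abundant members fbxa-206 (chromosome V, 16917192 to 16918478) was higher in MY16. Its libraries read 73.1, 51.6 and 56.9 CPM in MY16 and 32.5, 38.7 and 29.5 CPM in N2, a log2 fold change of 0.85 ± 0.156 (SE; adjusted p = 0.00607, edgeR). The neighbours fbxa-59 and fbxa-60 on chromosome III (939941 to 943476 and 944733 to 946300) were both higher in MY16. The mRNA of fbxa-60 was at 64.2, 51.3 and 53.5 CPM in MY16 and 29.1, 18.3 and 22.6 CPM in N2, a log2 fold change of 1.27 ± 0.256 (SE; adjusted p = 0.0118, edgeR). That of fbxa-59 was at 7.84, 10.3 and 14.9 CPM in MY16 and 3.18, 4.10 and 5.42 CPM in N2 (log2 fold change 1.37 ± 0.337, SE; adjusted p = 0.0415, edgeR). In both the isolates did not overlap.

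Of the higher members examined with single libraries left out, the calls of 4 depended on them. The calls of fbxa-164 and fbxa-176 were not examined in this way. The call of fbxa-60 was lost without MY16 replicate 1, N2 replicate 2 or N2 replicate 3 (edgeR adjusted p 0.0574 to 0.0743). That of fbxa-59 was lost without MY16 replicate 2 or 3, N2_Star replicate 3 or any N2 library (0.0511 to 0.161). For fbxa-114, described with its cluster below, the call was lost without MY16 replicate 1 or 2, MY16_Star replicate 2 or any N2 library (0.0652 to 0.172). For fbxa-216 on chromosome I, at 9.66, 6.57 and 6.42 CPM in MY16 and 2.68, 3.86 and 3.51 CPM in N2 (log2 fold change 1.17 ± 0.295, SE; adjusted p = 0.0453), it was lost without MY16_Star replicate 2, N2_Star replicate 3 or any MY16 or N2 library (0.0522 to 0.200), with no filter on low counts (0.0569) and with the replicate block (0.0537). Calls of fbxa-59, fbxa-114 and fbxa-216 were also lost without MY16 replicate 2 and MY16_Star replicate 2 together, the mRNA libraries with most low-quality alignments (0.1001 to 0.137), an alternative chosen after seeing the data. The direction held in each of these fits.

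All 5 lower members lay on chromosome V. The clearest was fbxa-153 (WBGene00007162, 15605673 to 15610384), without a count in any MY16_Star or MY16 library and at 5.84, 5.95 and 4.72 CPM in N2_Star and 6.74, 5.74 and 5.93 CPM in N2. That is at least 29.0-fold lower in MY16 than in N2 (adjusted p = 3.71e-05, edgeR). The mRNA of fbxa-115 (WBGene00013755, 20190535 to 20192152) gave 1, 3 and 0 reads in MY16, against 67, 53 and 68 reads in N2, where it was at 3.80 ± 0.804 CPM (SD, n = 3; adjusted p = 4.11e-04, edgeR). Both genes were thus near or at 0 in MY16.

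The other 3 lower members kept measurable mRNA in MY16. F-box A gene fbxa-95 (15571477 to 15572715) was at 3.13, 2.14 and 2.48 CPM in MY16 and 13.5, 13.8 and 12.6 CPM in N2, a log2 fold change of -2.36 ± 0.304 (SE; adjusted p = 4.54e-04, edgeR). The libraries of fbxa-192 (17640672 to 17650527) gave 8.30, 6.97 and 7.14 CPM in MY16 and 23.8, 28.1 and 22.2 CPM in N2, a log2 fold change of -1.72 ± 0.185 (SE; adjusted p = 1.09e-04, edgeR). Those of fbxa-211 (18127519 to 18128888) gave 6.48, 4.89 and 4.24 CPM in MY16 and 16.2, 13.04 and 12.4 CPM in N2, a log2 fold change of -1.41 ± 0.219 (SE; adjusted p = 0.00195, edgeR). In all 3 the highest MY16 library was below the lowest N2 library. The call of fbxa-211 was lost without the same MY16 and MY16_Star replicates 2 together (0.0595).

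**Figure D1:**
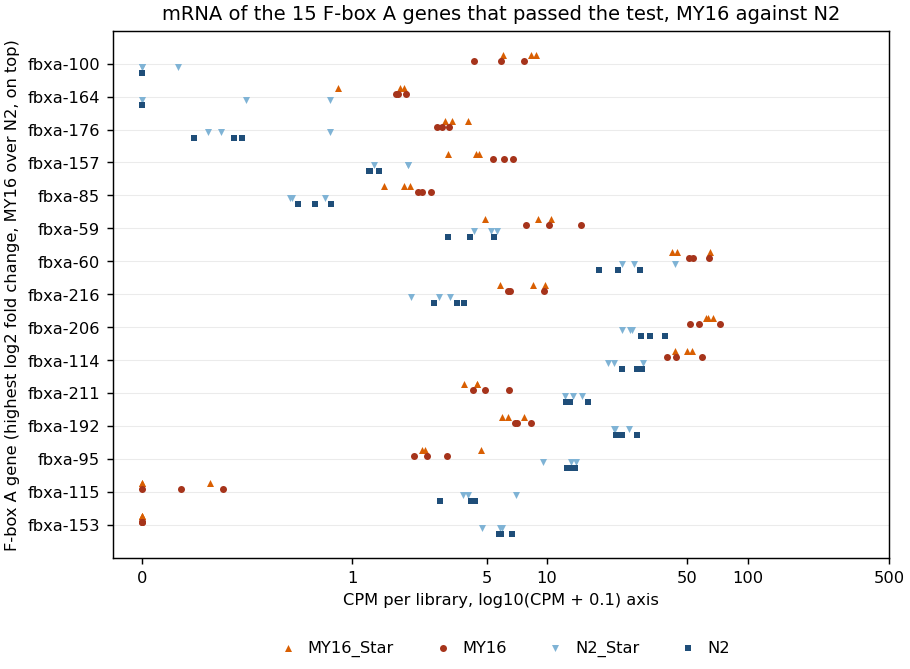
mRNA of the 15 F-box A genes that passed the test of MY16 against N2, 1 row per gene and 1 point per library, on an axis of log10(CPM + 0.1) labelled in CPM. Triangles pointing up are MY16_Star, circles MY16, triangles pointing down N2_Star and squares N2. In every row the MY16 and N2 points are apart, and fbxa-153 at the bottom has all 6 MY16_Star and MY16 points at 0.

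More members passed the isolate comparison in small RNA than in mRNA. Of 94 members tested, 36, or 38.3%, passed an adjusted p of 0.05 in MY16 against N2 (edgeR, Benjamini-Hochberg over 12241 genes), against 18.6% of all genes. Of these, 13 were higher in MY16, or 13.8% against 8.55% of all genes, and 23 were lower, or 24.5% against 10%. In 34 of the 36 the libraries of the isolates did not overlap, the exceptions being fbxa-95 and fbxa-99. That is 94.4%, near the 96.8% of all genes called. The median log2 fold change over the 94 was -0.03, beside -0.00 over all genes.

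Several members had far less small RNA in MY16 than in N2, and some of them almost none in MY16. The one with the most small RNA in N2 was fbxa-150 (WBGene00012624, chromosome V, 20522598 to 20524512), at 24.6, 23.98 and 20.1 CPM in MY16 and 460.3, 381 and 436 CPM in N2. It was lower in MY16 by a log2 fold change of -4.23 ± 0.180 (SE; adjusted p = 5.31e-08, edgeR). Its mRNA, at 3.07, 2.34 and 1.24 CPM in MY16 and 4.87, 5.09 and 5.12 CPM in N2, did not pass (adjusted p = 0.0580).

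At fbxa-166 (WBGene00015601, chromosome II, 1616829 to 1619048) the MY16 libraries held 1, 0 and 1 small RNA reads. The N2 libraries held 3917, 4478 and 369 reads, or 229, 199.7 and 239.6 CPM. The ratio was 1602-fold lower in MY16, with a 95% interval of 443-fold to 13232-fold (exact Clopper-Pearson on the summed reads, counting error only; adjusted p = 3.26e-06, edgeR). Its mRNA was too low to be tested, with no read in MY16 and 3, 8 and 12 reads in N2.

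At fbxa-115 the MY16 libraries held 0, 0 and 2 small RNA reads, whereas the N2 libraries held 1802, 1913 and 120 reads, or 105, 85.3 and 77.9 CPM. That is 701-fold lower in MY16, with a 95% interval of 194-fold to 5791-fold (Clopper-Pearson; adjusted p = 2.31e-06, edgeR). At fbxa-153 MY16 held a single read in all and N2 held 428, 490 and 31 reads, 347-fold lower with an interval of 62.1-fold to 13720-fold (Clopper-Pearson; adjusted p = 3.92e-06, edgeR). These are the same genes whose mRNA was near or at 0 in MY16.

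In a cluster of 3 on chromosome V, fbxa-148 (16939031 to 16940049) and fbxa-112 (16947158 to 16948111) had no small RNA read in any MY16 library. In N2, fbxa-112 was at 14.7, 13.7 and 10.4 CPM, at least 14.8-fold lower in MY16 (adjusted p = 5.64e-05, edgeR), and fbxa-148 was at 9.58, 10.9 and 5.84 CPM, at least 10.05-fold lower in MY16 (adjusted p = 1.64e-04, edgeR). Neither had an mRNA read in any of the 12 libraries.

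Another 3 members had traces in MY16. Small RNA of fbxa-118 (chromosome V, 19776080 to 19777327) was at 0, 0.153 and 2.53 CPM in MY16 and 52.9, 60.8 and 110 CPM in N2 (log2 fold change -5.96 ± 0.635, SE; adjusted p = 3.99e-05, edgeR). That of fbxa-3 (chromosome II, 1818889 to 1820874) was at 0, 0.458 and 0.594 CPM in MY16 and 30.2, 20.4 and 29.9 CPM in N2 (log2 fold change -5.83 ± 0.438, SE; adjusted p = 2.80e-06, edgeR). That of fbxa-208 (chromosome III, 1256819 to 1260190) was at 0, 1.22 and 0.297 CPM in MY16 and 4.15, 5.80 and 8.44 CPM in N2 (log2 fold change -3.16 ± 0.628, SE; adjusted p = 0.00382, edgeR). No MY16 library of the 3 genes overlapped an N2 library.

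The last of the 10 lower members named, fbxa-90 (WBGene00013623, chromosome V, 16966814 to 16968586), kept part of its small RNA in MY16, with 9.74, 6.11 and 8.32 CPM there and 33.3, 20.7 and 43.5 CPM in N2. It was lower in MY16 by -2.01 ± 0.280 on the log2 scale (SE; adjusted p = 3.00e-04, edgeR). The abundant fbxa-184 was lower too, at 148, 80.2 and 74.6 CPM in MY16 and 198, 169.9 and 213 CPM in N2 (log2 fold change -0.95 ± 0.254, SE; adjusted p = 0.0213, edgeR). Its call was lost without MY16 replicate 2 or 3 or N2 replicate 1 (0.0556 to 0.0949) and with only MY16 and N2 in the fit (0.0538).

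Members with more small RNA in MY16 were led by fbxa-11 in level. This gene (WBGene00020451, chromosome III, 950869 to 952264) was at 607, 572 and 556 CPM in MY16 and 167, 163 and 287 CPM in N2, a log2 fold change of 1.501 ± 0.231 (SE; adjusted p = 6.66e-04, edgeR). Its mRNA stood at 2.23 ± 0.546 CPM in MY16 and 2.37 ± 0.617 CPM in N2 (SD, n = 3; adjusted p = 0.989). Near it, fbxa-60 had 478, 335 and 377 CPM of small RNA in MY16 and 167, 182 and 217 CPM in N2 (log2 fold change 1.07 ± 0.255, SE; adjusted p = 0.0114, edgeR), a call lost without N2 replicate 1 (0.0685) or 2 (0.0509).

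Between fbxa-60 and fbxa-11 lies fbxa-67, the member with the most small RNA, which did not pass (adjusted p = 0.471). On its other side fbxa-10, at 165, 248 and 251 CPM in MY16 and 209.5, 219 and 238 CPM in N2, did not pass either (adjusted p = 0.997). Consecutive copies thus differed in whether they passed, and whether their fold changes differ was not tested.

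Among higher members with a mean of at least 5 CPM in MY16, the highest log2 fold changes were those of fbxa-133 and fbxa-201 on chromosome V. Small RNA of fbxa-133 was at 6.88, 6.57 and 5.50 CPM in MY16 and 0.526, 0.401 and 0.649 CPM in N2 (log2 fold change 3.68 ± 0.600, SE; adjusted p = 0.00100, edgeR). At fbxa-201 it was at 8.02, 20.01 and 20.95 CPM in MY16 and 2.86, 2.99 and 0.649 CPM in N2 (log2 fold change 2.71 ± 0.479, SE; adjusted p = 0.00180, edgeR). No mRNA read was counted at fbxa-133, and fbxa-201 had at most 7 in a library.

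A pair of abundant members was higher by less. For fbxa-61 (chromosome III, 1239048 to 1242791) the libraries gave 275, 411 and 423 CPM in MY16 and 146, 125 and 251 CPM in N2 (log2 fold change 1.10 ± 0.279, SE; adjusted p = 0.0160, edgeR). For fbxa-139 they gave 284, 178 and 157 CPM in MY16 and 93.8, 89.9 and 120.1 CPM in N2 (log2 fold change 1.03 ± 0.236, SE; adjusted p = 0.00934, edgeR). The call of fbxa-61 was lost without MY16 replicate 2 or 3 or N2 replicate 1 or 2 (0.0579 to 0.0938) and with only MY16 and N2 in the fit (0.0573). The call of fbxa-139 was lost without N2 replicate 1 (0.0564) or 2 (0.0517).

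The other called members were lower in level or fold. In the cluster of 22 on chromosome III, small RNA was lower in MY16 at fbxa-76, fbxa-77, fbxa-37 and fbxa-208 and higher at fbxa-61, while none of its mRNAs passed. The neighbours fbxa-76 and fbxa-77 were at 10.3 ± 4.60 and 1.91 ± 0.833 CPM in MY16, and 25.5 ± 4.44 and 7.05 ± 1.25 CPM in N2 (SD, n = 3; log2 fold changes -1.38 and -1.99, adjusted p = 0.00621 and 0.00524, edgeR). On chromosome V fbxa-107 was lower, at 20.6, 30.2 and 25.6 CPM in MY16 and 66.5, 54.1 and 59.1 CPM in N2 (log2 fold change -1.21 ± 0.192, SE; adjusted p = 8.15e-04, edgeR). Its cluster also holds fbxa-211, whose mRNA was lower. Mean levels were under 10 CPM in both isolates for fbxa-99, fbxa-125 and fbxa-37, lower in MY16, and for fbxa-6, fbxa-98, fbxa-131 and fbxa-174, higher in MY16. Of these, fbxa-6 and fbxa-99 had no read in N2 replicate 3, where 3 counts were worth 1.95 CPM. With fbxa-6 at 1.15, 1.22 and 2.08 CPM in MY16, that library does not separate the isolates at this gene. Small RNA of fbxa-174 was uneven within MY16, at 9.17, 1.37 and 2.53 CPM, against 0.0584, 0.178 and 0.649 CPM in N2. Apart from fbxa-208 and fbxa-61, the small RNA calls of this paragraph were not examined with single libraries left out. Nor were those of fbxa-116, fbxa-154 and fbxa-165, given with their clusters below.

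**Figure D2:**
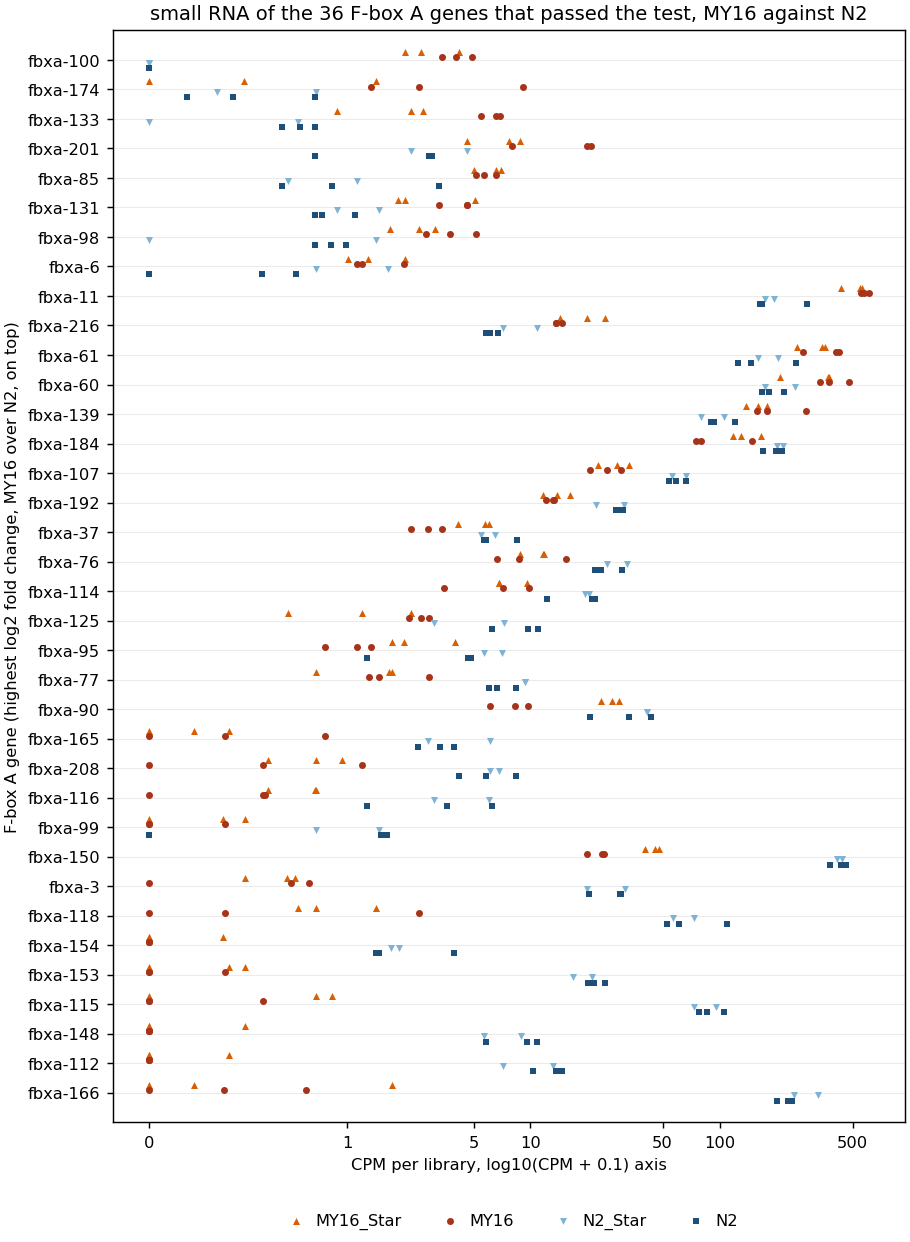
Small RNA of the 36 F-box A genes that passed the test of MY16 against N2, 1 row per gene and 1 point per library, on an axis of log10(CPM + 0.1) labelled in CPM, with the same symbols for MY16_Star, MY16, N2_Star and N2. The lower rows, such as fbxa-166, fbxa-115 and fbxa-118, have MY16_Star and MY16 points near 0 and N2_Star and N2 points far to the right.

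Of the 69 members tested in both assays, 9, or 13%, passed in both for MY16 against N2, against 2.16% of the 9864 genes tested in both. Higher in MY16 in mRNA and small RNA were 4 members (fbxa-100, fbxa-216, fbxa-60 and fbxa-85) and lower in both were 4 (fbxa-153, fbxa-115, fbxa-95 and fbxa-192). Over all genes 0.406% were higher in both and 1.24% lower in both. No member was lower in mRNA and higher in small RNA, against 0.213% of all genes. Opposite signs were seen at 1 member, fbxa-114, higher in mRNA and lower in small RNA, against 0.304% of all genes. A further 5 members passed in mRNA only and 12 in small RNA only, which does not show that the assays differ at them.

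Values for the members higher in both ran as follows. The small RNA of fbxa-216 was at 13.8, 13.7 and 14.7 CPM in MY16 and 6.07, 6.73 and 5.84 CPM in N2 (log2 fold change 1.16 ± 0.265, SE; adjusted p = 0.00896, edgeR). At fbxa-85 (chromosome V, 17259168 to 17260561) mRNA was at 2.22, 2.34 and 2.59 CPM in MY16 and 0.624, 0.492 and 0.762 CPM in N2 (log2 fold change 1.89 ± 0.334, SE; adjusted p = 0.00484, edgeR). Its small RNA was at 5.16, 6.57 and 5.65 CPM in MY16 and 0.818, 0.401 and 3.25 CPM in N2 (log2 fold change 2.70 ± 0.615, SE; adjusted p = 0.00878, edgeR). The small RNA call was lost without N2 replicate 1 (0.0748) or 2 (0.0644), although the isolates did not overlap in either assay.

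Among the members lower in both, small RNA of fbxa-192 was at 13.2, 12.1 and 13.4 CPM in MY16 and 31.0, 29.7 and 28.6 CPM in N2 (log2 fold change -1.22 ± 0.198, SE; adjusted p = 9.98e-04, edgeR). That of fbxa-95 was at 1.15, 1.37 and 0.743 CPM in MY16 and 4.67, 4.86 and 1.30 CPM in N2 (log2 fold change -1.90 ± 0.518, SE; adjusted p = 0.0237, edgeR). For fbxa-95 the shallow N2 replicate 3, with 2 reads, fell among the MY16 libraries. Its call was lost without MY16 replicate 2 or 3 or N2 replicate 1 or 2 (edgeR adjusted p 0.0519 to 0.106).

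The member with opposite signs, fbxa-114 (WBGene00013758, chromosome V, 20201616 to 20202874), had 59.2, 44.2 and 39.6 CPM of mRNA in MY16 and 28.1, 29.9 and 23.8 CPM in N2 (log2 fold change 0.81 ± 0.196, SE; adjusted p = 0.0372, edgeR). Its small RNA was at 3.44, 7.18 and 9.81 CPM in MY16 and 21.2, 21.9 and 12.3 CPM in N2 (log2 fold change -1.39 ± 0.332, SE; adjusted p = 0.0114, edgeR). In MY16_Star and N2_Star the signs were again opposite and passed, with log2 fold changes of 1.02 ± 0.196 in mRNA (adjusted p = 0.00552) and -1.37 ± 0.349 in small RNA (SE; adjusted p = 0.0214, edgeR).

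**Figure D3:**
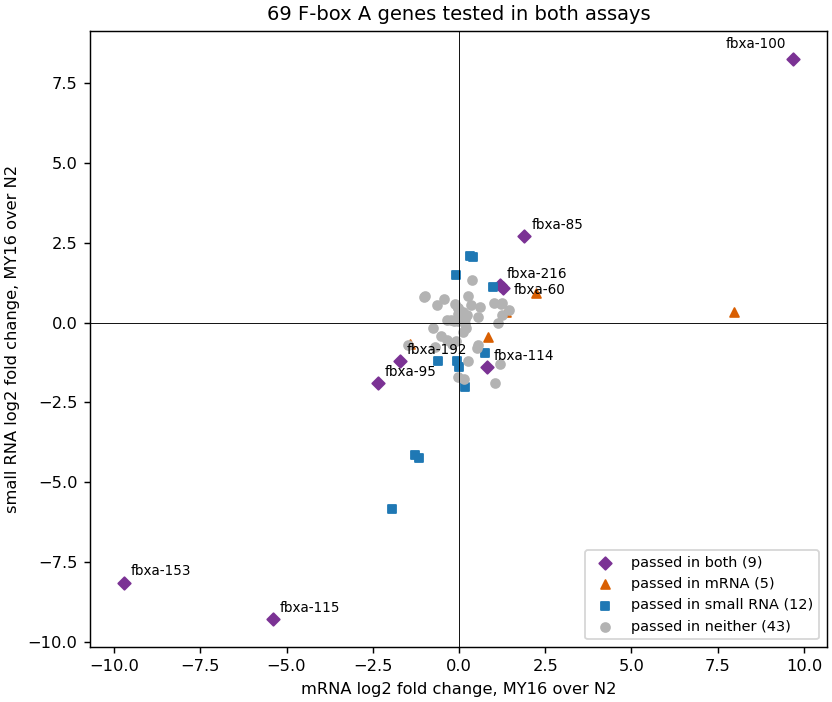
Log2 fold change of MY16 over N2 in mRNA (horizontal axis) and small RNA (vertical axis) for the 69 F-box A genes tested in both, 1 point per gene, with shape and colour showing in which assay it passed. The 9 named genes passed in both, and fbxa-114 is the named point at the lower right. Folds of fbxa-100, fbxa-153 and fbxa-115, with 0 to 4 reads in an isolate, are fitted values that depend on the prior count and set no size.

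Most called members lay on chromosome V. On chromosome V 6 members were higher and 5 lower of 39 tested in mRNA, where 6.21% of all genes of that chromosome passed, and 7 were higher and 14 lower of 43 in small RNA, where 23.4% passed. On chromosome III 2 were higher and 0 lower of 36 in mRNA (1.60% of all genes there), and 4 were higher and 4 lower of 27 in small RNA (13.6%). On chromosome II 1 of 9 passed in mRNA, a higher one (5.99%), and 4 of 10 in small RNA, all lower (20.5%). On chromosome X none of 6 members passed in mRNA, where 1.74% of all genes of the chromosome did, and none of 5 in small RNA, where 22.1% did.

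Neighbouring members could differ in opposite directions. In the cluster of 4 on chromosome V from 20187657 to 20204547, small RNA was lower in MY16 at fbxa-116, fbxa-115 and fbxa-114, while mRNA was lower at fbxa-115 and higher at fbxa-114. The remaining gene, fbxa-113, passed in neither assay. In the cluster from 15593384 to 15610384 on the same chromosome, fbxa-139 had more small RNA in MY16, whereas fbxa-154 and fbxa-153 had less. Small RNA of fbxa-154 was at 0 reads in MY16, against 26, 33 and 6 reads in N2 (adjusted p = 0.00495, edgeR).

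The cluster of 6 on chromosome II (1609252 to 1624672) held fbxa-164 with mRNA counted in MY16 and not in N2. Its neighbours fbxa-165 and fbxa-166 had less small RNA in MY16, at 0, 0.153 and 0.743 CPM for fbxa-165 in MY16 and 3.27, 2.50 and 3.90 CPM in N2 (log2 fold change -2.96 ± 0.687, SE; adjusted p = 0.00996, edgeR). The next gene, fbxa-158, is known as an F-box protein of a CUL-6 ubiquitin ligase that acts in the response to intracellular infection. It had no read of either kind in any MY16_Star or MY16 library, and up to 16 mRNA reads and 9 small RNA reads in a library of N2_Star or N2, too few to be tested. A second F-box protein of that ligase, fbxa-75, had at most 2 reads in a library. Both were chosen for their known role.

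MY16_Star was also compared with N2_Star, in libraries that share no sample with MY16 against N2. This contrast holds the isolate difference together with any difference between the unexplained Star groups. It came from the same fit, so both contrasts share an estimate of the spread. In mRNA 9 members were higher and 14 lower of 97, together 23.7%, where 22.5% of all genes passed (7.69% higher, 14.8% lower), so the share of F-box A genes was near that of all genes. With only these groups in the fit 14 members passed, and the share of all genes in that fit is not given here. Germline and oocyte markers, summed over 5 genes, were at 3704 to 4805 CPM in MY16_Star and 2202 to 2829 CPM in N2_Star. Early embryo markers were at 1154 to 1328 CPM in MY16_Star and 429 to 1021 CPM in N2_Star, with none at 0. Most of the early embryo sum was mex-5, with means of 914 CPM in MY16_Star and 531 CPM in N2_Star. None of the 3 early embryo markers tested passed. The untested end-1 and end-3 were lower in MY16_Star, with means of 0.019 and 0.123 CPM against 0.231 and 0.286 CPM. Of the germline and oocyte markers 4 of 5 passed as higher in MY16_Star. Sperm markers were at 4.43 to 19.7 CPM in MY16_Star and 20.6 to 43.5 CPM in N2_Star, and 3 of 5 passed as lower in MY16_Star. So did 1 of 5 body wall muscle markers, unc-54, and 1 of 5 hypodermis markers, dpy-7. The latter was uneven in N2_Star, at 2.07 to 42.2 CPM. No intestine or neuron marker passed. The part of these tissues in the count was not tested. In small RNA 7 members were higher and 22 lower of 94, together 30.9%, where 14.5% of all genes passed (5.82% higher, 8.69% lower). Without MY16_Star replicate 2 there were 18 small RNA calls, and without N2_Star replicate 1, which leaves a single N2_Star library assumed to vary like the others, 17.

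In mRNA 12 members passed in the same direction in both isolate contrasts, 7 higher and 5 lower, which is 80.0% of the 15 in MY16 against N2 and 52.2% of the 23 in MY16_Star against N2_Star. Over all genes called these shares were 86.7% and 15.5%. In small RNA 23 did, 5 higher and 18 lower, or 63.9% of 36 and 79.3% of 29, near the 63.3% and 80.9% of all genes called. No member passed in opposite directions. The 3 mRNA members called in MY16 against N2 only were fbxa-164, fbxa-60 and fbxa-59 (adjusted p 0.0703, 0.0694 and 0.148 in MY16_Star against N2_Star, edgeR). All 15 mRNA and 36 small RNA members called in MY16 against N2 had the same sign in MY16_Star against N2_Star, as did 98.9% and 97.7% of all genes called in mRNA and small RNA.

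Among the abundant mRNAs, fbxa-206 stood at 67.1, 63.2 and 62.0 CPM in MY16_Star and 25.98, 23.6 and 26.5 CPM in N2_Star (log2 fold change 1.34 ± 0.157, SE; adjusted p = 2.03e-04, edgeR). For fbxa-192 the values were 7.69, 6.404 and 5.95 CPM in MY16_Star and 25.6, 21.7 and 21.9 CPM in N2_Star (log2 fold change -1.79 ± 0.185, SE; adjusted p = 7.46e-05, edgeR). Both stayed apart without overlap, as they had between MY16 and N2. The small RNA of fbxa-11 was at 434, 562 and 546 CPM in MY16_Star and 192 and 172 CPM in N2_Star (log2 fold change 1.497 ± 0.266, SE; adjusted p = 0.00268, edgeR).

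The members near 0 in MY16 were near 0 in MY16_Star as well. Small RNA of fbxa-166 gave 0, 1 and 11 reads in MY16_Star, against 5166 and 1130 reads in N2_Star. At fbxa-153 there were 1, 0 and 1 reads in MY16_Star, against 335 and 77 in N2_Star. At fbxa-115 there were 3, 0 and 5 reads in MY16_Star, against 1498 and 338 in N2_Star. The libraries did not overlap at any of these genes.

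**Figure D4:**
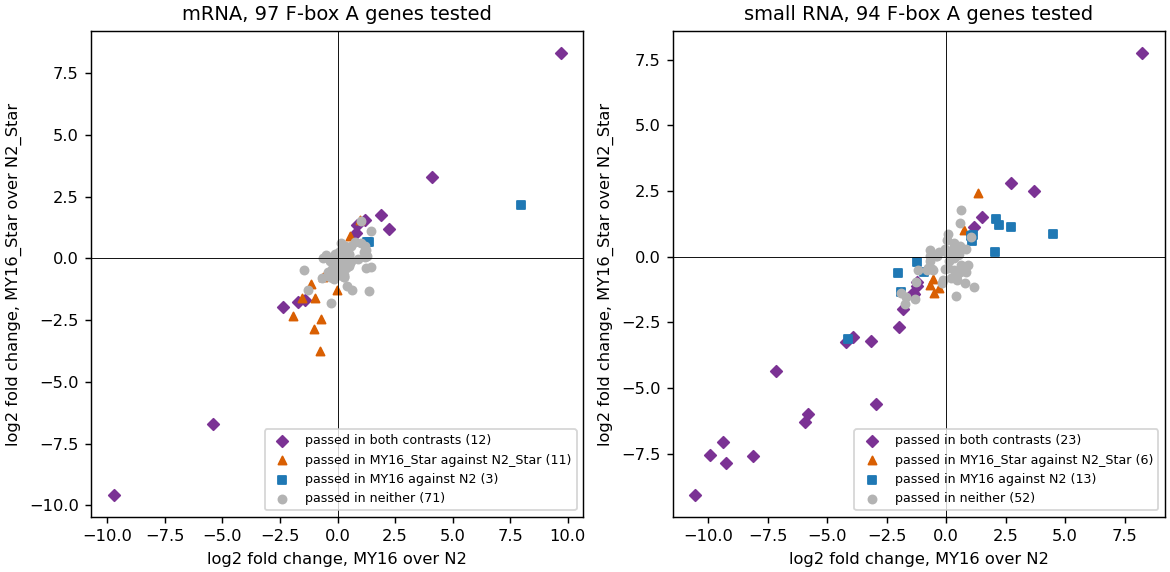
Log2 fold change of MY16 over N2 (horizontal axis) and of MY16_Star over N2_Star (vertical axis) for 97 F-box A genes in mRNA (left) and 94 in small RNA (right), 1 point per gene, marked by the contrast in which it passed. The 12 mRNA and 23 small RNA genes that passed in both lie at the lower left and upper right. The farthest points include fitted folds against groups at or near 0 reads, which set no size.

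MY16_Star was compared with MY16 to ask what goes with the added word. No F-box A mRNA passed (0 of 97, where 0.0215% of all genes did, edgeR), and none did by DESeq2. At an unadjusted edgeR p under 0.05 were 5 of the 97 members, beside 619 of all 13983 genes. The smallest unadjusted p among the 97 belonged to fbxa-202, at 0, 0.235 and 0.129 CPM in MY16_Star and 0.341, 0.916 and 0.828 CPM in MY16 (log2 fold change -2.44 ± 0.749, SE; adjusted p = 0.873, edgeR). The other members of smallest p were fbxa-155 and fbxa-61 below 0, at -1.52 and -0.66 on the log2 scale, and fbxa-120, fbxa-100 and fbxa-95 above it, at 0.52, 0.37 and 0.28. In small RNA 2 of 94 members passed, both higher in MY16_Star, where 0.572% of all genes were higher and 0.449% lower. They were fbxa-90 and fbxa-150, both on chromosome V and both lower in MY16 than in N2.

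Small RNA of fbxa-90 was at 29.5, 27.01 and 23.6 CPM in MY16_Star and 9.74, 6.11 and 8.32 CPM in MY16. The log2 fold change was 1.77 ± 0.277 (SE; adjusted p = 0.00861, edgeR), and no library overlapped. N2_Star libraries were at 41.6 and 41.2 CPM and N2 libraries at 33.3, 20.7 and 43.5 CPM, so the MY16_Star mean lay 76.2% of the way from the MY16 to the N2 mean, and 1 N2 library was below all 3 of MY16_Star. The mRNA of fbxa-90 was at 3.23 ± 0.711 CPM in MY16_Star, 3.17 ± 0.604 in MY16, 3.90 ± 0.549 in N2_Star and 2.83 ± 0.353 in N2 (SD, n = 3), with overlapping libraries of MY16_Star and MY16.

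Small RNA of fbxa-150 was at 48.2, 45.9 and 40.3 CPM in MY16_Star and 24.6, 23.98 and 20.1 CPM in MY16. The log2 fold change was 0.98 ± 0.164 (SE; adjusted p = 0.0145, edgeR), again without overlap. N2_Star was at 442 and 412 CPM and N2 at 460.3, 381 and 436 CPM, so MY16_Star lay 5.44% of the way from the MY16 to the N2 mean. The mRNA of fbxa-150 was at 2.51 ± 0.443 CPM in MY16_Star and 2.22 ± 0.92003 in MY16 (SD, n = 3; adjusted p = 0.942, edgeR).

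Both calls rested on few libraries. That of fbxa-90 was lost without MY16 replicate 2 (log2 fold change 1.59, adjusted p = 0.0641, edgeR). That of fbxa-150 was lost without MY16 replicate 2 (0.0661) or 3 (0.0907) or MY16_Star replicate 1 (0.0633) or 2 (0.0813), so the number of calls was 0 without MY16 replicate 2 and 1 without each of the other 3. Over fits without single libraries the log2 fold change ran from 1.59 to 1.87 for fbxa-90 and from 0.88 to 1.05 for fbxa-150.

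**Figure D5:**
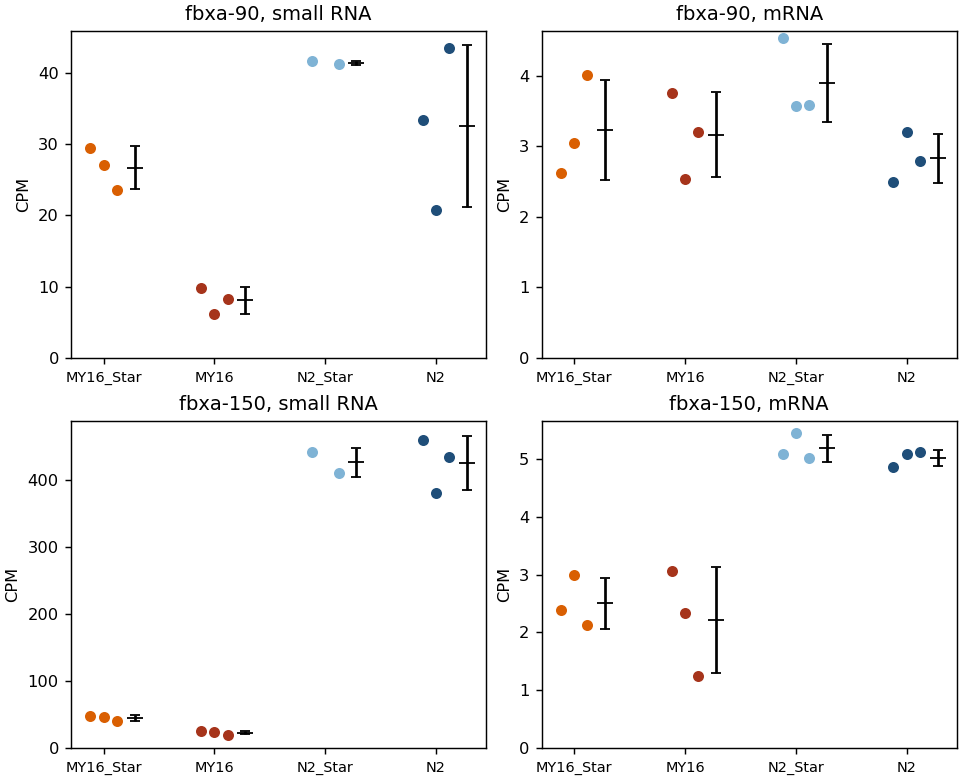
Small RNA (left) and mRNA (right) of fbxa-90 (top) and fbxa-150 (bottom) in CPM by group, 1 point per library, with the mean and SD (n = 3, and n = 2 for N2_Star small RNA) beside the points and axes from 0. MY16_Star small RNA of fbxa-90 reaches 23.6 to 29.5 CPM, above all MY16 libraries, while for fbxa-150 both stay far under the N2_Star and N2 libraries.

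The remaining small RNA members lower in MY16 than in N2 gave no such call in MY16_Star. For the genes at or near 0 in MY16 the largest MY16_Star library was 1.79 CPM for fbxa-166, 0.163 CPM for fbxa-112 and 0.220 CPM for fbxa-148. The last pair lies on chromosome V before fbxa-90, which gained small RNA.

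N2_Star was compared with N2 in the same way. No member passed in mRNA (0 of 97, where 0.15% of all genes passed, 0.122% higher and 0.0286% lower, edgeR). At an unadjusted edgeR p under 0.05 were 9 of the 97, beside 1698 of all 13983 genes. With DESeq2, which called 2.72% of all genes, 2 members passed, fbxa-164 as higher (adjusted p = 0.0337) and fbxa-61 as lower (0.0324). The mRNA of fbxa-61 was at 1.16, 1.13 and 0.984 CPM in N2_Star and 3.43, 2.46 and 1.78 CPM in N2, without overlap (edgeR log2 fold change -1.22 ± 0.300, SE; adjusted p = 0.125). That of fbxa-164 gave 15, 4 and 0 reads in N2_Star and none in N2, so 1 N2_Star library was also at 0. The mRNA of fbxa-6, at 11.9, 4.08 and 3.84 CPM in N2_Star and 2.81, 3.20 and 3.05 CPM in N2, leaned on N2_Star replicate 1 (log2 fold change 1.13 ± 0.399, SE; adjusted p = 0.261, edgeR). The remaining members of smallest p, fbxa-62, fbxa-206 and fbxa-38, had log2 fold changes of 1.88, -0.40 and -0.66. In small RNA no member passed (0 of 94, where 0.0245% of all genes were higher and 0.0% lower, edgeR). None passed by DESeq2 either, which called 0.115% of all genes. At an unadjusted edgeR p under 0.05 were 2 of the 94, beside 332 of all 12241 genes.

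The difference between the effects of MY16_Star against MY16 and of N2_Star against N2 was tested as an interaction. It passed for no member in mRNA (edgeR, 0.0% of all genes), nor by DESeq2, which called 0.619% of all genes. In small RNA it passed for none either (edgeR, 0.368% of all genes). At an unadjusted edgeR p under 0.05 were 8 of 97 members in mRNA, beside 1830 of all 13983 genes. In small RNA there were 6 of 94 members, beside 521 of all 12241 genes. DESeq2 called 1 small RNA member and 1.53% of all genes, the member being fbxa-150 (adjusted p = 0.0108), for which edgeR gave 0.97 ± 0.239 on the log2 scale (SE; adjusted p = 0.206). The gains of fbxa-90 and fbxa-150 in MY16_Star were therefore not shown by the edgeR test to differ from what happened in N2_Star.

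Of 27 genes listed for the cullins, RING proteins, regulators and skr adaptors, 26 were tested in mRNA and 1, or 3.85%, passed in MY16 against N2, near the 4.03% of all genes. That gene was skr-4, an adaptor of the CUL-6 ligase, at 0.301 ± 0.106 CPM in MY16 and 14.1 ± 1.40 CPM in N2 (SD, n = 3; log2 fold change -5.61 ± 0.627, SE; adjusted p = 1.43e-04, edgeR). Its small RNA went the other way, at 11.2 ± 5.69 CPM in MY16 and 2.23 ± 1.15 CPM in N2 (SD, n = 3; log2 fold change 2.22 ± 0.477, SE; adjusted p = 0.00628, edgeR). The highest SCF genes in mRNA per kb of span were the RING gene rbx-1 with 181 and the adaptors skr-2 with 166 and skr-1 with 151 CPM per kb, each above every F-box A gene. In small RNA skr-4 was the 1 higher gene of 18 tested, and skr-2, skr-10 and skr-20 were lower, together 22.2%, near the 18.6% of all genes. None of 9 F-box genes of other kinds passed in mRNA, and 1 of 8 tested, dre-1, was higher in small RNA.

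The F-box B and C families, taken by symbol in the same way, also held calls for MY16 against N2, and their small RNA calls were mostly lower. Of the F-box B genes, 2 were higher and 1 lower of 20 tested in mRNA, together 15% against 4.03% of all genes, and 4 were higher and 29 lower of 63 in small RNA, together 52.4% against 18.6%. Of the F-box C genes, 0 were higher and 5 lower of 22 in mRNA, together 22.7%, and 2 were higher and 8 lower of 23 in small RNA, together 43.5%. Median small RNA log2 fold changes were -1.41 in F-box B and -0.71 in F-box C genes, beside -0.03 in F-box A genes. These families were not tested against each other.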

How the data were processed

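The tools named, without versions, per the submitters' processing notes are cutadapt, FastQC, Bowtie2, HTSeq and DESeq2, and the genome build is ce11. Per the labels' protocols, RNA was extracted with TRIzol and built into libraries with a small RNA kit. The deposited values are whole-number counts per gene, not normalized. Whether counting used strand and how shared reads were treated are not given in the sources used here. The small RNA counts are marked with the letters AS, which the sources do not explain, so their strand is not stated. Reads of a gene and an antisense partner may therefore not be told apart. Lines that name no gene took 7.84% to 17.7% of mRNA counts and 38.7% to 46.6% of small RNA counts and were left out. Reads set aside for low alignment quality were 5.37% to 9.28% of mRNA counts and 0 of small RNA counts, so reads shared by near-identical copies may have been handled differently in the 2 assays.

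For each assay all 4 groups entered 1 fit in edgeR 4.0.16 (R 4.3.3, limma 3.58.1): TMM scaling, filterByExpr, glmQLFit and glmQLFTest, with Benjamini-Hochberg adjustment over all genes tested and a threshold of 0.05. A standard error is the log2 fold change divided by the square root of F. CPM is TMM-scaled. A fold against a group without reads was computed against 3 counts per library. With 1 to 3 reads in a group, the ratio of summed reads over scaled library sizes is given with its 95% Clopper-Pearson interval. Symbols came from a table of gene IDs, which named 44017 of 46904 IDs, and positions from RefSeq's table for WBcel235. Fbxa pseudogenes without an ID in that table were not analysed here. The steps were tested on simulated counts with changes set in MY16. In mRNA the test of MY16 against N2 recovered 51 of 100 genes changed 2-fold and 91 of 100 changed 4-fold. In small RNA it recovered 14 and 82 of 100, with 2 false calls in each assay. Members that did not pass may thus still differ by 2-fold, above all in small RNA.

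Genes are named by these rules: the 10 highest per kb of span; up to 10 called members per direction in MY16 against N2 with non-overlapping libraries and a mean of at least 5 CPM in the higher group; members called in a Star contrast or the interaction, or up to 3 per direction by p where none was; members called in both assays; called and highest SCF genes. Others named were chosen after their values were seen. The members, the lists and the tests were chosen with earlier results of these data known. Alternatives were RLE scaling, DESeq2 1.42.0, no filter, a replicate block, fits of only the groups compared and leaving out each library.

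Replicate numbers are shared by the groups. Deviations of same-numbered libraries from their group means correlated at 0.146 to 0.412 between MY16_Star and MY16 in small RNA, over 0.1 in all 3 pairs. In the other comparisons made here at least 1 pair was below that.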

Additional observations from a re-analysis of the deposited data

Results flagged for a closer look

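The mRNA of fbxa-156 (WBGene00007392, chromosome V, 17895230 to 17896786) was picked because its libraries lay in opposite directions in the Star groups of the isolates. It was at 3.67, 3.94 and 2.07 CPM in MY16_Star, all below the 4.66, 4.58 and 5.49 CPM of MY16. It was at 7.60, 7.14 and 8.75 CPM in N2_Star, all above the 4.49, 5.25 and 5.16 CPM of N2. The difference between the effects was -1.26 ± 0.370 on the log2 scale (SE), and its test missed the threshold (adjusted p = 0.313, edgeR). The estimate ran between -1.38 and -0.97 when each library was left out. No F-box A mRNA, this one included, passed in MY16_Star against MY16 or in N2_Star against N2 (edgeR). How many of all genes show such a pattern is not given here.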

How the results depend on the processing

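Counts of called F-box A genes that moved by more than 1.5 times, in either assay, were few. DESeq2 gave 2 mRNA calls for N2_Star against N2 and 1 small RNA call for the interaction, where edgeR gave 0. In mRNA MY16_Star against N2_Star had 14 calls with only those groups in the fit and 15 without MY16 replicate 2 and MY16_Star replicate 2 together, against 23. Small RNA of MY16_Star against MY16 had 4 calls with no filter on low counts, against 2. Leaving out 1 library at a time gave 0 to 2 calls there, 17 to 33 for small RNA of MY16_Star against N2_Star, 11 to 18 for mRNA and 24 to 37 for small RNA of MY16 against N2, and 18 to 28 for mRNA of MY16_Star against N2_Star. Genes called in both assays in MY16 against N2 numbered 6 to 10. Fits without a library or with only the groups compared also held fewer samples. The cause of these moves was not tested. Except for DESeq2, the share of all genes called under these settings is not given here. The counts thus do not show whether the family or the whole test moved.

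With the replicate block, calls numbered 17 in mRNA and 33 in small RNA for MY16 against N2, 25 and 26 for MY16_Star against N2_Star, and 2 in small RNA for MY16_Star against MY16, both in the fit over all groups and in a fit of only those groups, which was chosen after seeing the data. The share of all genes called with the block is not given here, so these counts do not show a change particular to the family. Of the named results 1 call was lost under the block, fbxa-216 in mRNA (adjusted p = 0.0537, edgeR).

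Signs reversed for uncalled values near 0. In mRNA of MY16 against N2, fbxa-210 (log2 fold change -0.03) gave 0.015 with only those groups and 0.12 without the replicates 2, and -0.24 to 0.12 when 1 library was left out. For fbxa-197 (-0.02) RLE scaling gave 0.015, DESeq2 0.016, no filter 0.0084, only those groups 0.034 and leaving out the replicates 2 gave 0.18, with -0.30 to 0.18 over single libraries. Over single libraries fbxa-101 ran from -0.10 to 0.29 and fbxa-72 from -0.25 to 0.017, and fbxa-95 in MY16_Star against MY16 from -0.12 to 0.55. Small RNA of fbxa-10 (-0.00) gave 0.0016 with DESeq2, 0.22 without the shallow MY16 replicate 1 and N2 replicate 3 and -0.10 to 0.15 over single libraries. Over the settings other than single libraries, 437 values of named genes kept direction and call, 8 lost the call, 3 gained it and 9 reversed in sign. With 1 library left out, 842 values kept both, 45 lost the call and 19 reversed in sign. Shallow small RNA libraries limit members under about 2 CPM, and low counts in MY16 on the N2 genome limit all isolate folds.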
